A study of Mus musculus with 8 samples.

Results

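A set of 9 transcription factors that set or maintain hepatocyte identity were followed across resting and regenerating mouse liver. They were chosen by name, as Hnf4a, Foxa1, Foxa2, Foxa3, Cebpa, Cebpb, Onecut1, Prox1 and Creb3l3, and are 9 of the 34465 genes with deposited values. Their 25 isoforms are among 96792 isoforms in a second deposited table. RNA from whole liver was sequenced in 8 libraries, 2 for each of 4 groups. All mice carried floxed alleles of b-PDGFR (b-PDGFR fl/fl, gene Pdgfrb), were of the strain 129S4/SvJae/FVB and were 3 months old. The groups were GFAP Cre +/- mice taken 72 h after partial hepatectomy, GFAP Cre -/- mice taken 72 h after partial hepatectomy, GFAP Cre +/- mice after a sham operation and GFAP Cre -/- mice after a sham operation, called Cre-positive and Cre-negative livers here. The GFAP promoter drives Cre in hepatic stellate cells, and the series describes the deletion as specific to them, so that hepatocytes were not the cells targeted. The comparisons that follow from this design are regenerating against sham liver, and livers with the stellate cell deletion against livers without it. Whether the 2 libraries of a group are from 2 animals is not stated in the labels, so p-values measure only the spread between these libraries.

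In the liver, hepatocyte nuclear factors form a network in which each member binds the promoters of many liver genes and of other members. HNF4A is a nuclear receptor needed for most hepatocyte functions, the FOXA proteins are pioneer factors that open chromatin at liver enhancers, and the C/EBP proteins balance quiescence and metabolism (C/EBP alpha) against the regenerative and acute phase response (C/EBP beta). ONECUT1 acts in hepatocyte and bile duct development, PROX1 in hepatoblast migration and metabolic control, and CREB3L3 is a membrane-bound factor that is cleaved under stress and fasting and drives lipid and iron genes.

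The sequences upstream of Hnf4a, Foxa3, Cebpa and Cebpb are shown because the values below turn on these genes: Hnf4a, Foxa3 and Cebpb are the members whose libraries after hepatectomy all lay on opposite sides of sham in the 2 genotypes, and Cebpa is the partner against which Cebpb is set. Each line gives the 250 bases before a RefSeq start site, 5′ to 3′ in the direction of the gene, on build GRCm38.p6. The expression values were made on another build (mm9), and the genes were matched by symbol. Capitals mark a match to 1 of 6 motifs searched on both strands.
Hnf4a, upstream window, chr2:163506607-163506856, + strand: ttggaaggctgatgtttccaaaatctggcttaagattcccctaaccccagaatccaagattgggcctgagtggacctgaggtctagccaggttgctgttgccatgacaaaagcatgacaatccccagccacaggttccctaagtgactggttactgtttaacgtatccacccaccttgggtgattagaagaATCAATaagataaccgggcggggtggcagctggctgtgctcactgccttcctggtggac
Hnf4a, downstream window, chr2:163546905-163547154, + strand: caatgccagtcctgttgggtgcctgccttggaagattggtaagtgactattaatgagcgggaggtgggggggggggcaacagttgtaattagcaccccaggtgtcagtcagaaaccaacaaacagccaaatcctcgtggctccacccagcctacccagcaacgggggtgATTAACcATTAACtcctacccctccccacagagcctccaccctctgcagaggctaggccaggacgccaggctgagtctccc
Foxa3, chr7:19023540-19023789, - strand: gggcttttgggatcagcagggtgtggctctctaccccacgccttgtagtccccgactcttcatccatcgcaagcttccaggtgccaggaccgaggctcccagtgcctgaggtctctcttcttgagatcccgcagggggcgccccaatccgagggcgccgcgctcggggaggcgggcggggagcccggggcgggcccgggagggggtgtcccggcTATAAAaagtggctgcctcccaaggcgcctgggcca
Cebpa, chr7:35119043-35119292, + strand: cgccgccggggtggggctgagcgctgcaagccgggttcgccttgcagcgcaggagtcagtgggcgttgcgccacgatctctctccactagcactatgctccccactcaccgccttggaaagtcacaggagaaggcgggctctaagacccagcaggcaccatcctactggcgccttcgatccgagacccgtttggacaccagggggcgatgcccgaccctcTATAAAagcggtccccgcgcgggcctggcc
Cebpb, chr2:167688665-167688914, + strand: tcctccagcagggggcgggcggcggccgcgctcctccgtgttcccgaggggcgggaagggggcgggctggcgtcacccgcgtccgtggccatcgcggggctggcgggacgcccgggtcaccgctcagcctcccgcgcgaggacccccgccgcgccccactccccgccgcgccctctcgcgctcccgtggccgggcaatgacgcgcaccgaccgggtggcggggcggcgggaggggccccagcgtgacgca

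All 9 members had at least 1 such window, with 14 windows in all. The motifs were the forkhead motif TGTTTAC, the C/EBP motif TTGCNNAA, the ONECUT motif ATCAAT, the HNF1 half-site GTTAAT, the HNF4 motif CAAAGTCCA and the TATA box TATAAA, and no match overlapped another. In the upstream window of Hnf4a, the capitals are an ONECUT motif that begins 59 bases before the start site. In its downstream window, they are a pair of HNF1 half-sites on the opposite strand, which begin 81 and 74 bases before the start site. A TATA box begins 36 bases before the start of Foxa3 and 30 bases before that of Cebpa, and none of the 6 motifs was found in the window of Cebpb, which is 81.6% G and C. Of 32851 RefSeq windows of this length, 6.72% held the ONECUT motif, 6.43% the HNF1 half-site and 12.4% the TATA box. The forkhead motif was found in 3.17% of them, the C/EBP motif in 9.56% and the HNF4 motif in 0.384%. A match describes letters in these windows and not a bound site.

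Values are a normalized signal as the authors deposited it, whose scaling for gene length is not known. Levels are therefore compared between libraries for 1 gene and not between genes. Each library summed to between 8617660 and 11583800, and the number of reads behind a value is unknown. Pdgfrb, the targeted gene, had a signal of 63.1 and 99.9 in Cre-positive and of 123 and 70.5 in Cre-negative livers after hepatectomy. After sham surgery it had 59.4 and 46.0 in Cre-positive and 49.8 and 63.3 in Cre-negative livers. Its groups overlapped between genotypes in both conditions, so the gene's total in whole liver showed no detectable loss (adjusted p = 0.769 after hepatectomy and 1 after sham, limma). Of 11 hepatocyte markers listed, albumin (Alb) was at 0 in 7 of 8 libraries. The other 10, none of them at 0 in any library, had a summed signal of 651952 and 437165 in Cre-positive and 283747 and 421884 in Cre-negative livers after hepatectomy, against 630578 and 733611 in Cre-positive and 641939 and 633675 in Cre-negative sham livers. The library with the lowest sum, Cre-negative hepatectomy library 1, was also the one with the lowest Hnf4a, Foxa3 and Cebpa. Cre-positive hepatectomy library 2, with a sum of 437165, had the highest Hnf4a (4111) and Foxa3 (226) of the 8 libraries, and a Cebpa of 215. The part of hepatocyte content in the values of these genes was not tested. The 2 Cre-positive libraries after hepatectomy stood further apart than other duplicates, by a median ratio of 1.67 over genes, against 1.38 between Cre-negative duplicates after hepatectomy and 1.16 and 1.17 between Cre-positive and Cre-negative sham duplicates. In Cre-positive hepatectomy library 2, genes with a GC content under 40% had a median log2 difference from sham of -1.79 (427 genes). Genes with at least 55% GC had one of 0.65 (3707 genes) there, of 0.59 and 0.38 in the Cre-negative libraries after hepatectomy, and of -0.11 in Cre-positive hepatectomy library 1.

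No member passed the test in any comparison, and every factor had a signal above 10 in every library, sham or regenerating. In hepatectomy averaged over both genotypes, 0 of 9 members passed at an adjusted p under 0.05 (limma on log2 of signal + 1, Benjamini-Hochberg over 16443 genes), where 4.49% of all genes tested passed. The lowest adjusted p was 0.188, for Prox1. At an unadjusted p under 0.05 there were 3 members, Foxa2, Cebpa and Prox1, beside 23.8% of all genes. The log2 fold changes of the members lay between -1.07 and 0.63 with a median of -0.22, beside a median of 0.12 over all genes. No member had all 4 hepatectomy libraries on 1 side of all 4 sham libraries, whereas 17.4% of all genes did. The same livers held all 10 of 10 mitotic markers called higher, with a median log2 fold change of 4.47. Because these are bulk samples, fewer hepatocytes and less RNA per hepatocyte cannot be told apart in any value given here.

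**Figure D1:**
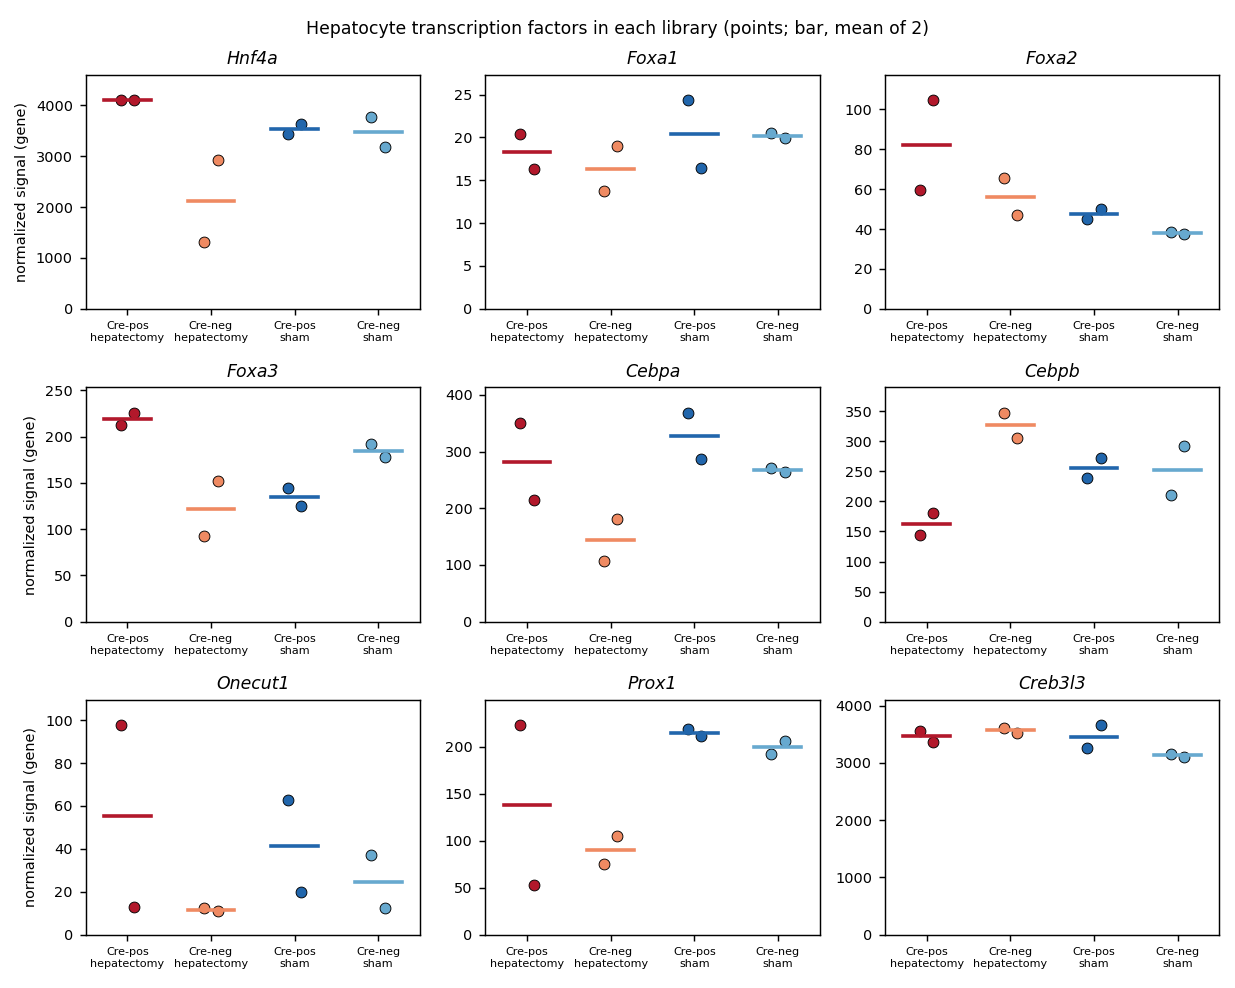
Normalized signal of each of the 9 factors (vertical axes, from 0, on a scale of its own for each gene) in the 8 libraries, grouped along the horizontal axis; points are libraries and bars are means of 2. Cebpb is lowest in Cre-positive and highest in Cre-negative livers after hepatectomy, the duplicates of Prox1 and Onecut1 lie far apart in Cre-positive livers after hepatectomy, and Creb3l3 stays between 3106 and 3655 in every library.

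Hnf4a, the central nuclear receptor of the network, had a signal of 4096 and 4111 in Cre-positive livers after hepatectomy, against 3443 and 3636 in Cre-positive sham livers. In Cre-negative livers it had 1305 and 2922 after hepatectomy, against 3762 and 3186 after sham. Both Cre-positive hepatectomy libraries lay above all other libraries, and both Cre-negative hepatectomy libraries lay below all others. The log2 fold change with hepatectomy was 0.21 ± 0.37 (SE) in Cre-positive livers (adjusted p = 0.813) and -0.83 ± 0.37 in Cre-negative livers (adjusted p = 0.252, limma, n = 2 per group). Corrected for GC content, the Cre-positive value was -0.12, on the other side of 0. After hepatectomy, Cre-positive livers averaged 4104 ± 11.1 and Cre-negative livers 2114 ± 1143 (SD, n = 2 each), a fitted fold of 2.10 (log2 1.07 ± 0.37, adjusted p = 0.217). The spread between the Cre-negative duplicates was almost as wide as the gap between the genotypes: without Cre-negative hepatectomy library 1 the log2 difference was 0.49, and without library 2 it was 1.65.

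Hnf4a-201 and Hnf4a-202 differed in their share of the Hnf4a signal between genotypes after hepatectomy. Hnf4a-201 made up 42.3% and 47.8% of the gene's signal in Cre-positive livers after hepatectomy, against 16.9% and 22.03% in Cre-negative livers after hepatectomy. In sham livers its share was 37.8% and 45.5% in Cre-positive and 49.3% and 43.2% in Cre-negative animals. Hnf4a-202 had the complementary pattern, with 45.4% and 44.2% in Cre-positive and 82.3% and 69.3% in Cre-negative livers after hepatectomy, against 54.0% and 49.2% in Cre-positive and 40.5% and 48.3% in Cre-negative sham livers. Both Cre-negative hepatectomy libraries thus stood apart from the other 6 in these shares, which are given as descriptions with no test. Hnf4a-001 did not separate them, with a share of 0.15% and 7.48% there, the latter the highest of the 8 libraries. Its signal also varied widely between duplicates, at 1.97 and 219 in Cre-negative livers after hepatectomy and at 61.8 and 0.07 in Cre-positive sham livers. In signal, Hnf4a-201 had 1733 and 1967 in Cre-positive and 221 and 644 in Cre-negative livers after hepatectomy, against 1301 and 1655 in Cre-positive and 1854 and 1378 in Cre-negative sham livers. Hnf4a-202 had 1858 and 1819 in Cre-positive and 1075 and 2024 in Cre-negative livers after hepatectomy, against 1858 and 1789 in Cre-positive and 1522 and 1540 in Cre-negative sham livers. The lower share of Hnf4a-201 in Cre-negative livers after hepatectomy therefore went with a lower signal of that isoform, while the range of Hnf4a-202 there overlapped the sham range. The value of Hnf4a-202 was identical to all digits given in Cre-positive hepatectomy library 1 and Cre-positive sham library 1, as happened between libraries for 269 of 51979 isoforms with a signal above 1 in at least 2 libraries.

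Hnf4a-002 and Hnf4a-003, minor isoforms of Hnf4a, passed the isoform test in Cre-negative livers. In hepatectomy averaged over genotypes, 0 of the 25 member isoforms passed over 47375 isoforms tested, where 1.72% of all isoforms passed, and 6 had an unadjusted p under 0.05, beside 19.1% of all. Within Cre-negative livers, read after the averaged result was seen, 2 of the 25 passed, beside 4.5% of all isoforms. Between genotypes after hepatectomy, read at the same time, the same 2 of 25 passed, beside 5.17% of all. Hnf4a-002 had a signal of 8.10 and 20.3 in Cre-negative livers after hepatectomy, against 94.6 and 109 in Cre-negative sham livers, and fell by 2.89 ± 0.49 in log2 units (SE, limma, adjusted p = 0.0285). It had 164 and 102 in Cre-positive livers after hepatectomy, which was higher than in Cre-negative livers by 3.23 ± 0.49 on the log2 scale (adjusted p = 0.0187). Hnf4a-003 was listed at 0 and 3.69 in Cre-negative livers after hepatectomy, against 120 and 34.7 in Cre-negative sham livers (adjusted p = 0.0305). It had 92.5 and 77.9 in Cre-positive livers after hepatectomy, against those same Cre-negative values (adjusted p = 0.0227). An exact 0 in such a table can be a failed estimate, and no fold change is given for Hnf4a-003. The 2 contrasts share the Cre-negative hepatectomy libraries. No call was kept in all leave-out settings. That of Hnf4a-003 was lost on leaving out any 1 of 7 libraries within Cre-negative livers and any 1 of 5 between genotypes. That of Hnf4a-002 was lost on leaving out any 1 of 5 of the 8 libraries in either contrast. These 5 were every sham library in both contrasts of Hnf4a-002, with Cre-negative hepatectomy library 1 within Cre-negative livers and Cre-positive hepatectomy library 2 between genotypes. For Hnf4a-003, only leaving out Cre-negative hepatectomy library 2 kept the call within Cre-negative livers, and between genotypes it was kept without that library or without either Cre-negative sham library. These calls were also lost when only the groups compared entered the fit, those of Hnf4a-003 with a pseudocount of 0.1 or without a filter on low values, and that of Hnf4a-002 within Cre-negative livers without the filter. The isoform names are those of the deposited table and could not be assigned to the 2 start sites shown above.

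**Figure D2:**
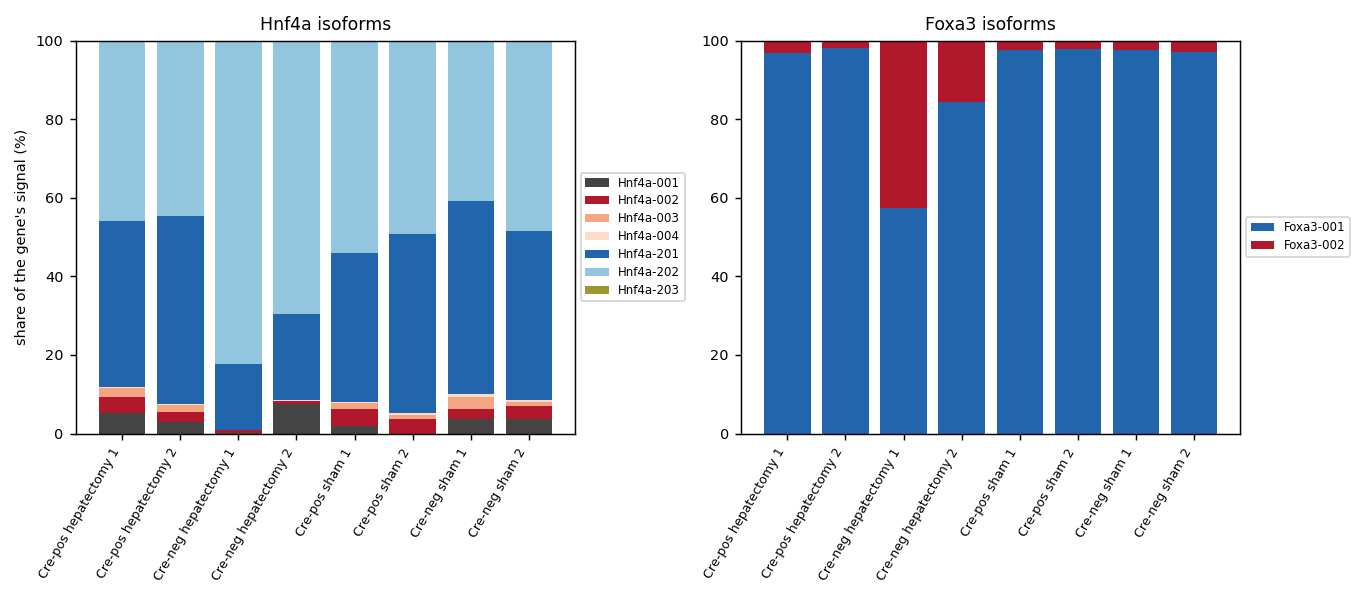
Share of each isoform in the gene's signal (vertical axis, percent) for Hnf4a (left) and Foxa3 (right) in each of the 8 libraries. In both Cre-negative hepatectomy libraries Hnf4a-202 (82.3% and 69.3%) and Foxa3-002 (42.5% and 15.7%) take a larger share than in any other library.

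The 3 Foxa genes, which encode related forkhead proteins, did not share 1 pattern. Foxa3 had a signal of 213 and 226 in Cre-positive livers after hepatectomy, against 145 and 125 in Cre-positive sham livers. In Cre-negative livers it had 92.5 and 152 after hepatectomy, against 192 and 178 after sham. The hepatectomy libraries thus lay above sham in Cre-positive and below sham in Cre-negative livers, without overlap in either. The log2 fold change was 0.70 ± 0.29 (SE) in Cre-positive livers (adjusted p = 0.363) and -0.64 ± 0.29 in Cre-negative livers (adjusted p = 0.263). In sham livers themselves, Foxa3 was lower in Cre-positive than in Cre-negative animals without overlap, by -0.45 ± 0.29 on the log2 scale (adjusted p = 1), and this sham difference enters the contrast of the responses.

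Foxa3 also differed in isoform makeup. Foxa3-002 made up 3.04% and 1.76% of its signal in Cre-positive and 42.5% and 15.7% in Cre-negative livers after hepatectomy, against 2.36% and 2.03% in Cre-positive and 2.28% and 2.92% in Cre-negative sham livers. Its signal was 39.3 and 23.8 in Cre-negative livers after hepatectomy, against 4.38 and 5.19 in Cre-negative sham livers (log2 fold change 2.45 ± 0.52, adjusted p = 0.0519, not past the threshold). In the shares of Hnf4a-201, Hnf4a-202 and Foxa3-002, both Cre-negative hepatectomy libraries thus stood apart, with library 1 the further from the other groups. Isoforms of other members stood apart there too. Foxa2-002 made up 37.1% and 54.2% of its gene's signal in these libraries, with library 2 the further, against 10.2% to 31.4% elsewhere. Creb3l3-003 made up 0.99% and 0.63%, against 1.26% to 2.05% elsewhere. How often shares separate in this way over all genes was not counted.

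Foxa2 had a signal of 59.4 and 105 in Cre-positive livers after hepatectomy, against 45.1 and 50.2 in Cre-positive sham livers. In Cre-negative livers it had 65.3 and 47.2 after hepatectomy, against 38.6 and 37.5 after sham. Within each genotype the hepatectomy libraries lay above sham without overlap, and the averaged log2 fold change was 0.63 ± 0.25 (adjusted p = 0.191). With a correction for GC content the averaged value was 0.16, and in Cre-negative livers it was -0.10 in place of 0.54. Foxa1 had a low signal, of 20.3 and 16.3 in Cre-positive and 13.7 and 19.0 in Cre-negative livers after hepatectomy, against 24.4 and 16.4 in Cre-positive and 20.5 and 19.9 in Cre-negative sham livers. Its averaged log2 fold change was -0.22 ± 0.26 (adjusted p = 0.612). The ratio of Foxa2 to Foxa3, which does not move with the scaling of a library, was 0.279 and 0.464 in Cre-positive and 0.706 and 0.312 in Cre-negative livers after hepatectomy, against 0.311 and 0.402 in Cre-positive and 0.201 and 0.211 in Cre-negative sham livers. Transcripts of Foxa2 are 59.7% and those of Foxa3 54.4% G and C, and this ratio was not computed with the GC correction.

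The C/EBP pair included the member with the lowest p between genotypes in regenerating liver. Cebpb, the C/EBP factor of the acute phase and of proliferating hepatocytes, had a signal of 145 and 180 in Cre-positive livers after hepatectomy, against 240 and 272 in Cre-positive sham livers. In Cre-negative livers it had 348 and 306 after hepatectomy, against 211 and 293 after sham. The Cre-positive hepatectomy libraries were the lowest of the 8 and the Cre-negative hepatectomy libraries the highest. The log2 fold change with hepatectomy was -0.66 ± 0.27 (SE) in Cre-positive livers (adjusted p = 0.346) and 0.39 ± 0.27 in Cre-negative livers (adjusted p = 0.421), and with a GC correction the Cre-negative value was -0.24. Between genotypes after hepatectomy the log2 difference was -1.01 ± 0.27, a fitted fold of 0.497 (adjusted p = 0.151, unadjusted p = 0.00624). Leaving out each library in turn gave -1.17 to -0.85 for this difference, and the other settings gave -1.02 to -0.64.

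Cebpa, the factor tied to quiescence and metabolic genes, had a signal of 350 and 215 in Cre-positive livers after hepatectomy, against 369 and 286 in Cre-positive sham livers. In Cre-negative livers it had 107 and 180 after hepatectomy, against 272 and 264 after sham. The hepatectomy and sham libraries did not overlap in Cre-negative livers and overlapped in Cre-positive livers. The log2 fold change was -0.24 ± 0.35 (SE) in Cre-positive livers (adjusted p = 0.775) and -0.94 ± 0.35 in Cre-negative livers (adjusted p = 0.197), and the difference between these, 0.70 ± 0.50, did not pass (adjusted p = 0.728).

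The ratio of Cebpb to Cebpa was 0.413 and 0.838 in Cre-positive and 3.26 and 1.69 in Cre-negative livers after hepatectomy, against 0.649 and 0.951 in Cre-positive and 0.776 and 1.11 in Cre-negative sham livers. The Cre-negative hepatectomy libraries had the 2 highest ratios of the 8, and the Cre-positive hepatectomy libraries lay within or below the sham range. Both genes are rich in G and C (67.2% for Cebpb and 61.0% for Cebpa transcripts). The ratio was not computed with the GC correction, and the part of GC content in it was not tested.

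**Figure D3:**
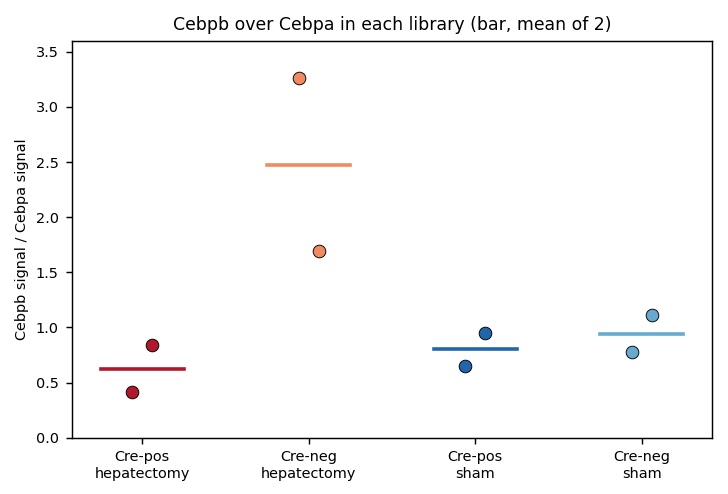
Cebpb signal divided by Cebpa signal (vertical axis, from 0) in each library, by group along the horizontal axis; bars are means of 2 libraries. The Cre-negative hepatectomy libraries, at 3.26 and 1.69, lie above all 6 others, which lie between 0.413 and 1.11.

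Prox1, a homeobox factor of hepatoblasts, hepatocytes and lymphatic endothelium, had a signal of 223 and 52.8 in Cre-positive livers after hepatectomy, against 219 and 211 in Cre-positive sham livers. In Cre-negative livers it had 74.7 and 105 after hepatectomy, against 192 and 206 after sham. Of the 4 hepatectomy libraries, 3 lay below every sham library, and Cre-positive hepatectomy library 1 lay above them all. The averaged log2 fold change was -1.07 ± 0.42 (SE, adjusted p = 0.188). Without Cre-positive hepatectomy library 1 it was -1.58 and passed (adjusted p = 0.00345), as did Foxa2 (0.83, adjusted p = 0.0219) and Cebpa (-0.77, adjusted p = 0.0496). In that setting the group's remaining library was assumed to vary like the others, and the number of all genes called was 5369, against 738 with all 8 libraries. Summed lymphatic endothelial markers, over the 7 that were listed, were 851 and 930 in Cre-positive and 637 and 621 in Cre-negative livers after hepatectomy, against 1286 and 869 in Cre-positive and 1296 and 1286 in Cre-negative sham livers. Most of each sum came from Reln, which is also on the stellate cell list, and Flt4. In Cre-negative livers after hepatectomy these were at 322 and 389 (Reln) and at 218 and 121 (Flt4). Of the 7, 2 had a positive averaged log2 fold change, among them Pdpn, at 24.4 in Cre-negative hepatectomy library 2. None of the 7 lymphatic markers passed the test, and their part in the Prox1 values was not tested. Prox1-001 made up 92.9% and 59.1% of the Prox1 signal in Cre-positive and 94.2% and 98.6% in Cre-negative livers after hepatectomy, against 93.6% to 98.9% over the sham libraries. The library with the low Prox1 signal among Cre-positive hepatectomy livers thus also had the unusual isoform makeup, and it is the one with low values of genes under 40% GC. Prox1 transcripts are 50.2% G and C. Over the settings that kept all libraries, the GC correction among them, the averaged log2 fold change of Prox1 was -1.21 to -0.99. The part of GC content in the Prox1 values of that library was not tested.

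Onecut1, an activator of Hnf4a and Foxa2 in development, varied more between duplicates than any other member. Its signal was 97.6 and 12.9 in Cre-positive and 12.3 and 10.9 in Cre-negative livers after hepatectomy, against 62.7 and 19.9 in Cre-positive and 37.0 and 12.2 in Cre-negative sham livers. Duplicates differed by up to 7.55-fold, and the averaged log2 fold change of -0.40 ± 0.70 (SE) had an interval of -2.04 to 1.24 (adjusted p = 0.735). Leaving out Cre-positive sham library 1 or Cre-positive hepatectomy library 2 turned its sign. Onecut1 also marks bile duct cells, and 12 cholangiocyte markers summed to 1817 and 639 in Cre-positive and 879 and 623 in Cre-negative livers after hepatectomy, against 478 and 513 in Cre-positive and 551 and 576 in Cre-negative sham livers. The library with the highest Onecut1 signal was the one with the highest sum, of which the secreted protein gene Spp1 made up 1714. The bile duct keratin Krt19 was at 12.5 in that library, below its 35.4 in the other Cre-positive hepatectomy library and its 57.4 and 36.6 in Cre-negative hepatectomy livers, and the part of bile duct cells in the Onecut1 values was not tested.

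Creb3l3, the hepatocyte and intestinal factor of lipid metabolism, was the steadiest member. Its signal was 3556 and 3369 in Cre-positive and 3617 and 3519 in Cre-negative livers after hepatectomy, against 3259 and 3655 in Cre-positive and 3156 and 3106 in Cre-negative sham livers. The averaged log2 fold change was 0.10 ± 0.14 (SE), with an interval of -0.24 to 0.43 (adjusted p = 0.694), and scaling by the median of ratios or correcting for GC content turned its sign. Creb3l3-001 made up 97.4% to 98.9% of the signal over the 8 libraries.

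**Figure D4:**
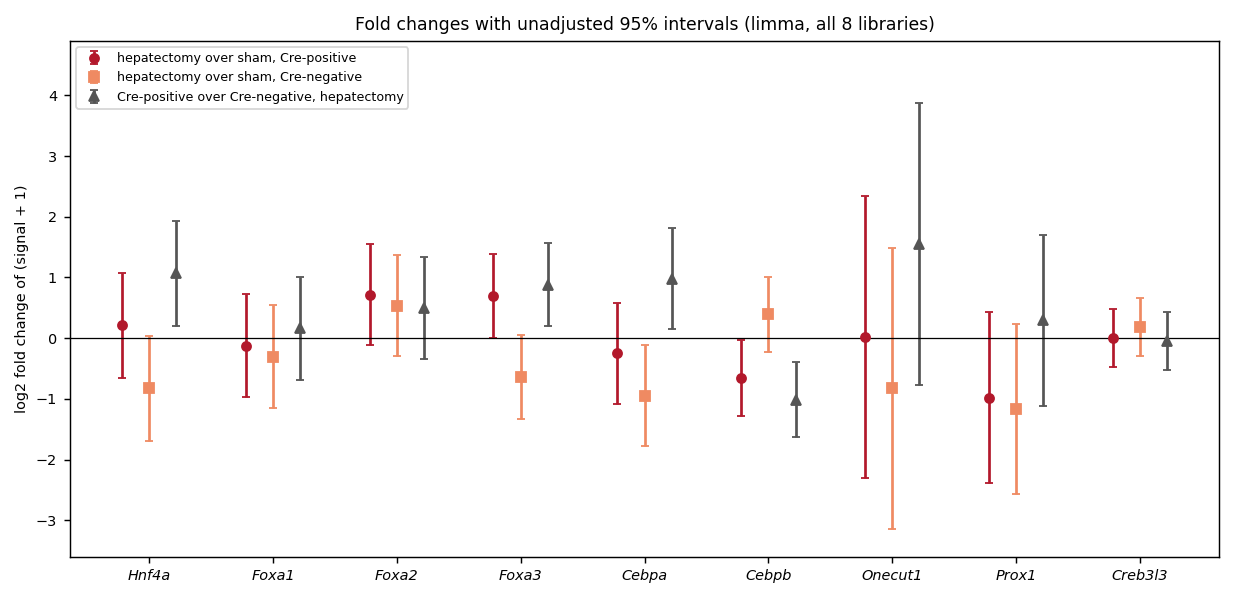
Log2 fold changes of the 9 factors (vertical axis) with unadjusted 95% intervals from limma, for hepatectomy over sham in Cre-positive livers (circles), in Cre-negative livers (squares) and for Cre-positive over Cre-negative livers after hepatectomy (triangles). Hnf4a, Foxa3, Cebpb and Onecut1 (0.02 in Cre-positive and -0.83 in Cre-negative livers) have point estimates on opposite sides of 0 in the 2 genotypes, and the intervals of Onecut1 are the widest.

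Within Cre-positive livers, 0 of 9 members passed for hepatectomy (lowest adjusted p = 0.346), beside 0.943% of all genes, and 2 had an unadjusted p under 0.05 (Foxa3 and Cebpb), beside 13.5% of all. Within Cre-negative livers, 0 of 9 passed (lowest adjusted p = 0.197), beside 1.11% of all genes, and 1 had an unadjusted p under 0.05 (Cebpa), beside 21.3% of all. The median log2 fold change of the members was 0.00 in Cre-positive and -0.64 in Cre-negative livers, beside 0.02 and 0.21 over all genes. Hepatectomy and sham did not overlap for 4 members in Cre-positive livers (43.4% of all genes) and for 8 in Cre-negative livers (63% of all genes). Of these 8, Hnf4a, Foxa1, Foxa3, Cebpa and Prox1 were lower after hepatectomy, and Foxa2, Cebpb and Creb3l3 higher.

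Between genotypes after hepatectomy, 0 of 9 members passed, beside 0.0182% of all genes, which is 3 genes. At an unadjusted p under 0.05 there were 4, with Hnf4a, Foxa3 and Cebpa at higher and Cebpb at lower values in Cre-positive livers, beside 18.3% of all genes. The groups did not overlap for 5 members, beside 40.4% of all genes. In sham livers 0 of 9 passed, beside 0.00608% of all genes, and 0 had an unadjusted p under 0.05, beside 0.888%. The spread in this test is shared by all groups. Sham duplicates lay closer together (median ratios of 1.16 and 1.17) than hepatectomy duplicates (1.67 and 1.38). The p-values between sham groups therefore do not measure the spread of sham libraries alone, and none of them shows that a difference is absent. The sham groups did not overlap for 5 members, beside 31.6% of all genes.

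The difference between the responses of the genotypes passed for 0 of 9 members (lowest adjusted p = 0.562), beside 0.0122% of all genes. At an unadjusted p under 0.05 there were 2, beside 8.09% of all genes. These were Foxa3, at a log2 difference of 1.34 ± 0.42 (SE), and Cebpb, at -1.05 ± 0.38, while Hnf4a, at 1.04 ± 0.52, was not among them. Those 3 of 9 members lay above sham in all libraries of 1 genotype and below sham in all libraries of the other, as did 6.85% of all genes.

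Ordered by mean level, the 4 groups of each gene form 3 neighbouring pairs, 27 in all, and the ranges of 17 overlapped. For Foxa1 and Onecut1 no neighbouring pair separated. Such pairs were not counted over all genes, so these counts describe the order of groups and no trait particular to the members. Cre-positive hepatectomy livers had the highest mean for Hnf4a, Foxa2, Foxa3 and Onecut1, and Cre-negative hepatectomy livers had the lowest for Hnf4a, Foxa1, Foxa3, Cebpa, Onecut1 and Prox1.

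Lists of genes that work beside or below these factors had between 0 and 4 members called in hepatectomy averaged over genotypes, and no test of a list as a whole was run. In hepatectomy averaged over genotypes, 0 of 18 tested paralogs, a list that includes 8 of the members themselves, passed (median log2 fold change -0.09), and 7 had an unadjusted p under 0.05. Of all genes tested, 4.49% passed there and 23.8% had an unadjusted p under 0.05. The one of highest signal among non-members, Creb3, was at -0.05 (adjusted p = 0.862). Of 30 other hepatocyte transcription factors, 2 rose and 0 fell (median -0.16). These were Foxm1, the forkhead factor that drives mitotic genes, with 26.9 and 162 in Cre-positive and 46.3 and 77.3 in Cre-negative livers after hepatectomy, against 1.27 and 2.49 in Cre-positive and 2.32 and 4.52 in Cre-negative sham livers (log2 4.21, adjusted p = 0.0109), and Atf5, a stress-response factor, at 0.84 (adjusted p = 0.0413).

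Of 23 listed targets of Hnf4a, 1 rose and 2 fell (median -0.25), beside 4.49% of all genes called. Apoc2, an activator of lipoprotein lipase, rose by 1.48 on the log2 scale (adjusted p = 0.00509). Tat, which breaks down tyrosine, fell by 1.08 (adjusted p = 0.0356), and Slc10a1, the sodium-dependent bile acid importer, fell by 1.17 (adjusted p = 0.0398). Of 11 Cebpa targets, only Tat passed, and 5 had an unadjusted p under 0.05, beside 23.8% of all genes. A negative value was found for 10, with a list median of -0.99 beside 0.12 over all genes. The only positive value, 4.45, was that of Alb, at 0 in 7 of 8 libraries, and Serpina1a was at 0 in 2. Both are also on the list of Foxa targets. The hepatocyte markers had a median of -0.66 in the same comparison, and they share genes with the Cebpa list, among them Alb and Tat. Of 11 Creb3l3 targets, only Apoc2 passed, with a list median of -0.24.

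Of 10 Foxa targets, 1 rose and 3 fell (median -0.75), beside 4.49% of all genes called, and 6 had an unadjusted p under 0.05, beside 23.8% of all. Afp, the fetal alpha-fetoprotein gene, rose by 2.02 (adjusted p = 0.0462), and Igfbp1 fell by 1.45 (adjusted p = 0.00711) beside Tat and Slc10a1. Igfbp1, a secreted binder of insulin-like growth factors, had a signal of 436 and 480 in Cre-positive and 7883 and 8615 in Cre-negative livers after hepatectomy, against 5192 and 3788 in Cre-positive and 6883 and 5838 in Cre-negative sham livers. It was lower in Cre-positive than in Cre-negative livers after hepatectomy by -4.17 ± 0.24 on the log2 scale (adjusted p = 0.00668), while none of the 9 factors passed in that comparison. The averaged fall of Igfbp1 came with values in opposite directions in the 2 genotypes, of -3.27 in Cre-positive (adjusted p = 0.00733) and 0.38 in Cre-negative livers (adjusted p = 0.398).

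Of 18 targets of Cebpb and of the acute phase, 0 passed (median 0.05) and 4 had an unadjusted p under 0.05, beside 23.8% of all genes. The 2 of highest signal were C3, at -0.31 (adjusted p = 0.488), and Fgg, at -0.49 (adjusted p = 0.426). Between genotypes after hepatectomy, the list median was 0.81, beside an all-gene median of -0.23, whereas Cebpb itself was at -1.01 there. An unadjusted p under 0.05 was found for 8 of 18, beside 18.3% of all genes. The list median and the factor thus lay on opposite sides of 0 in that comparison, with none past the threshold. Of the 18, 14 were positive, and those below 0 included Socs3 (-2.30) and Il1rn (-1.10). Hepatocyte markers were positive in 9 of 11 there (median 0.35), and Fgb is on both lists.

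Without Cre-positive hepatectomy library 1, the counts called were 7 of the paralog list, 10 of the other factors, 9 of the Hnf4a targets, 7 of the Cebpa targets, 4 of the acute phase list, 2 of the Creb3l3 targets and 7 of the Foxa targets, where 32.7% of all genes tested were called. The paralog count includes the members Foxa2, Cebpa and Prox1. Each sham library and each Cre-negative hepatectomy library moved at least 1 of these counts by over 1.5 times in the other direction when left out, and without any 1 of them Apoc2 alone of the Hnf4a targets remained called. In the settings that kept all libraries, Apoc2 and Igfbp1 remained called in each, while Foxm1, Atf5, Tat, Slc10a1 and Afp were not called without a filter on low values. Tat and Afp were also not called with a pseudocount of 10, and Afp after quantile normalization. Atf5, Slc10a1 and Afp were not called after scaling by the median of ratios or without the intensity trend, and Atf5 after the GC correction. Markers of other cells in the averaged comparison were 3 of 10 sinusoidal endothelial and 1 of 12 stellate cell markers called lower, 2 of 11 hepatocyte markers called lower, and 0 called among 11 cholangiocyte, 9 Kupffer cell, 9 leukocyte and 7 lymphatic markers. With all libraries, 4.49% of all genes tested were called in that comparison. Summed Kupffer cell markers were 4368 and 4631 in Cre-positive and 2602 and 1916 in Cre-negative livers after hepatectomy, against 2575 and 2352 in Cre-positive and 1678 and 2702 in Cre-negative sham livers, and their part in the values of the factors was not tested.

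The genes that are no member and whose profiles over the 8 libraries were closest to each factor, by the root mean square difference of centred log2 values are named as a description. Closest to Hnf4a were Chmp7 (0.07) and Pgam5 (0.11), to Foxa2 Tmem177 (0.10) and Arfgap1 (0.11), and to Foxa3 Ywhag (0.12) and Cxcl12 (0.15). Closest to Cebpa were Fam82a2 (0.07) and Scarb2 (0.14), and to Cebpb the low-signal 4930441O14Rik (0.10) and AI606181 (0.12). Prox1 had Sec23a (0.06) and Dhx9 (0.10), Foxa1 had Ssx2ip (0.09) and Lamb1 (0.11), and Creb3l3 had Ube2k (0.05) and BC031181 (0.07). The closest to Onecut1, Tnfsf10 (0.63) and Uprt (0.65), were further from it than the 2 closest of any other member.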

How the data were processed

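The authors deposited, for 8 libraries, a normalized signal of genes and of isoforms. The submitters' processing notes name TopHat, Cufflinks, mm9 and NCBIM37, while versions, normalization and strand handling are not given in the sources used here. Trizol-extracted RNA (2.5 ug) went into TruSeq libraries run on a HiSeq2000, per the labels' protocols. FPKM values were assumed when the test was chosen, and the same test was kept for the signal. No column was left unmapped. A library's depth is unknown, and the number of libraries limits the precision.

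Tests used R 4.3.3 with limma 3.58.1, applied to log2(signal + 1), which understates the change of low genes. They covered 16443 genes and 47375 isoforms with a mean of at least 1 over the 8 libraries, with 1 mean per group, a spread shared by all groups and moderated along the intensity trend (4 residual and 3.25 prior degrees of freedom), two-sided, with Benjamini-Hochberg adjustment and a threshold of 0.05. The procedure was run on simulated data, for the averaged contrast only and with each gene's spread equal in all groups. The planted changes were larger than those of the members, so these runs do not give its power for the members. All 9 members and their 25 isoforms entered the tests. Alternatives were pseudocounts of 0.1 and 10, no filter, a mean of at least 10, scaling by median of ratios or quantiles, no trend, only the groups compared, a correction by GC content in 20 bins (88.6% of tested genes had a GC value) and leaving out each library. Members and lists were chosen with earlier results of these data known. All members, Pdgfrb, up to 4 called genes per list (or 2 of highest signal) and 2 nearest profiles per member are named. The cholangiocyte genes Spp1 and Krt19 were named after their values were seen. So were Reln, Flt4, Pdpn, Alb, Serpina1a, Socs3, Il1rn and Fgb. Replicate numbers follow accession order.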

Additional observations from a re-analysis of the deposited data

Results flagged for a closer look

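For 3 of the 9 factors, both hepatectomy libraries lay on one side of sham in Cre-positive livers and on the other side in Cre-negative livers. The same held for 6.85% of all genes tested. The difference of the responses, Cre-positive minus Cre-negative, was 1.04 ± 0.52 for Hnf4a, 1.34 ± 0.42 for Foxa3 and -1.05 ± 0.38 for Cebpb (log2, SE, n = 2 per group). In the model this difference did not pass for any of them (limma adjusted p = 0.659 for Hnf4a, 0.562 for Foxa3 and 0.587 for Cebpb). Over the settings that kept all libraries, the difference was 0.85 to 1.14 for Hnf4a, 1.26 to 1.44 for Foxa3 and -1.08 to -0.72 for Cebpb. Leaving out 1 library cannot turn its sign in genes picked by this pattern and gave 0.46 to 1.62 for Hnf4a, 0.98 to 1.69 for Foxa3 and -1.29 to -0.81 for Cebpb. With the GC correction, Hnf4a and Cebpb no longer had opposite signs in the 2 genotypes: Hnf4a was at -0.12 in Cre-positive and -1.26 in Cre-negative livers, and Cebpb at -0.96 in Cre-positive and -0.24 in Cre-negative livers. Foxa3 kept opposite signs, at 0.46 in Cre-positive and -0.95 in Cre-negative livers. The 2 responses use separate sham and hepatectomy libraries.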

How the results depend on the processing

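No paired analysis was possible because the label numbers run from 1 to 8 and no number is shared between groups. In the settings that kept all libraries, 0 members passed in every comparison. Leaving out each library in turn gave 0 to 3 members called in hepatectomy averaged over genotypes, 0 to 2 in Cre-positive livers, 0 to 1 in Cre-negative livers, and 0 elsewhere. The highest of these came without Cre-positive hepatectomy library 1, and Prox1 was also called in Cre-negative livers without Cre-positive hepatectomy library 2. The leave-out range for member isoforms was 0 to 4 averaged over genotypes and, in the 2 contrasts added after seeing the data, 0 to 6 within Cre-negative livers and 0 to 6 between genotypes after hepatectomy, against 2 in each with all libraries. With a pseudocount of 0.1 these were 1 and 1, with no filter 0 and 1, and with only the groups compared 0 and 0, while a pseudocount of 10 gave 4 between genotypes; why was not tested. Of 54 member fold changes, 7 crossed the threshold in some setting, and signs turned 49 times without a call. Calls over all genes in the averaged comparison also rose without Cre-positive hepatectomy library 1, as given above. The other counts of calls given here stand without a share over all genes or isoforms. None of these counts therefore describes a trait particular to the members. The GC correction was not run on isoforms, and the averaged contrast already uses only the groups compared. Depth is unknown, and 2 libraries per group leave wide intervals.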
